A study of Mus musculus with 2 samples.

Results

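The cytosolic ribosomal protein genes encode the protein components of the ribosomes that translate nuclear transcripts. They were chosen by name, as Rpl or Rps followed by a number, together with Rplp0, Rplp1, Rplp2 and Rpsa. Names of pseudogene copies and of the Rps6k kinases were left out, and at least 20 CPM over all barcodes was required, where CPM are UMIs (unique molecular identifiers, which tag each captured transcript) per 1e+06 UMIs of the same cells. Of 84 genes with such a name, 81 met this level, out of 32286 features in the files. They comprised 32 genes of the small subunit and 49 of the large subunit. The lowest level inside the limit was that of Rpl7l1, at 133 CPM, followed by Rps27l at 528 CPM and Rpl36al at 801 CPM. Outside it lay Rpl39l at 0.215 CPM (96 UMIs), Rpl10l at 0.0358 CPM (16 UMIs) and Rpl3l at 0.0134 CPM (6 UMIs), relatives of Rpl39, Rpl10 and Rpl3. All 81 members passed the filter on low counts in the fits below. Rps4l was not analysed here.

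Transcripts were counted in single cells of caudal tissue of mouse embryos (strain C57BL/6J, wild type, embryonic day 8.5), in 2 libraries (replicates 1 and 2) made with a 10x Genomics 5′ kit. Neuromesodermal progenitors, the subject of the series by its title, give rise to both spinal cord and paraxial mesoderm. Embryos were pooled, no allele or treatment separates the libraries, and whether each library had its own pool is not stated. Cells were sorted into classes by marker genes and compared within the tissue, so every class is named "-like".

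Each ribosome holds, in principle, a single copy of most of these proteins, and the genes are known for high and coordinated transcription. Their transcripts usually open with a short run of pyrimidines, the terminal oligopyrimidine (TOP) motif, through which growth signals such as mTOR control their translation. Among the stalk proteins Rplp0, Rplp1 and Rplp2, it is Rplp1 and Rplp2 that differ from this plan. They are acidic, are present in several copies and recruit translation factors to the ribosome. In embryos, loss of a copy of some members is known to give regional defects, such as the skeletal patterning changes of Rpl38 mutants.

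The run was looked for in RefSeq gene starts (GRCm38.p6, the assembly behind mm10), as a C followed by at least 4 further C or T, read on the transcribed strand only. Of 61 members with an entry, 36 (59.0%) had a run of at least 5 bases that opened within 10 bases of the annotated start, against 34.4% of 27025 genes in the table. A run opening exactly at the start was found in 13 members (21.3%) and in 813 (3.01%) of all genes. The starts of 7 members, 30 bases each, are shown because these members recur below, with the annotated start at base 16. Capitals mark the longest run that opens at the positions searched, where there is any. Rpl39 also holds a shorter run there that meets the rule, left in lower case. Rplp2 (chr7:141447636-141447665, plus strand), Rpl31 (chr1:39367836-39367865, plus), Rpl28 (chr7:4792950-4792979, plus), Rpl39 (chrX:37085208-37085237, minus) and Rpl22l1 (chr3:28805493-28805522, plus) had a run. Rplp0 (chr5:115559452-115559481, plus) and Rpl4 (chr9:64173372-64173401, plus) had none of this length at the positions searched. The Rpl4 window does hold a run of this length upstream of those positions, left in lower case. The GENCODE start of Rpl4 (chr9:64173375) lies inside that run. Rplp1 lies on chr9:61913284-61914542 (mm10, minus strand).
Rplp2: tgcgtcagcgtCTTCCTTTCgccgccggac
Rpl31: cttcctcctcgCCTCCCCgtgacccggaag
Rpl28: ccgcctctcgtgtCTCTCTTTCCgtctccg
Rpl39: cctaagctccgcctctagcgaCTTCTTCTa
Rpl22l1: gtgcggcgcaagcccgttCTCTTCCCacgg
Rplp0: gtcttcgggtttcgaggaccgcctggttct
Rpl4: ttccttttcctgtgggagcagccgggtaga

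The deposited matrices held 30449 and 18245 barcodes with 295866003 and 150964773 UMIs in replicates 1 and 2. Retained cells had 2000 UMIs or more, 1000 genes or more and 0.3 to 10% mitochondrial UMIs, and were not called doublets. They numbered 10156 and 7975, with medians of 17330.5 and 13493 UMIs. Of these, 6320 and 4788 fell into a class. A cell joined a class when it held at least 3 of that class's 8 markers and led every other class by at least 2. Among the leading genes by fold, several were markers of the gate itself, so their lead was set by the gating. Such genes were Epha5, Fgf8 and Nkx1-2 in caudal epiblast-like, Dll1 and Msgn1 in presomitic mesoderm-like and Sox3, Sox1 and Pax6 in neural-like cells. The markers named with the classes below were gate genes too. Leading genes outside the lists were Cdx4 and Lix1 in caudal epiblast-like, Pcdh19 and Nrarp in presomitic mesoderm-like and Fgfbp3 and Crabp2 in neural-like cells. Hes3, of the caudal epiblast list, held rank 4 in neural-like cells. The libraries shared 761 barcodes, 4.17% of the smaller set, and 35 of these were in a class in both libraries, 3 of them in the same class. Barcodes with under 0.3% mitochondrial UMIs, 10683 and 5146 in number, took no part: members made up 25% and 24.4% of their UMIs, against 20.9% and 19.7% in the retained cells.

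Ribosomal protein transcripts made up 20.3% to 22.6% of the UMIs in replicate 1 and 19.0% to 20.8% in replicate 2, over the 8 classes that reached 50 cells in both libraries. The share was highest in neural-like cells, at 22.6% in replicate 1 and 20.8% in replicate 2 (mean 21.7% ± 1.27 SD, n = 2). Caudal epiblast-like cells had 21.7% and 20.5% (mean 21.1% ± 0.853), somite-like cells 21.6% and 20.3% (20.9% ± 0.941), and presomitic mesoderm-like cells 21.0% and 19.8% (20.4% ± 0.866). These classes held the first to the fourth place, in this order, in each library. The order rests on the limit on mitochondrial UMIs: with barcodes under 0.3% admitted, presomitic mesoderm-like cells had 23.1% and 21.0% and neural-like cells 22.9% and 21.1%, so the first place went to presomitic mesoderm-like cells in replicate 1.

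Surface ectoderm-like cells had 21.0% and 19.0% (mean 19.99% ± 1.45 SD, n = 2), gut endoderm-like cells 20.3% and 19.5% (19.9% ± 0.565), endothelium-like cells 20.5% and 19.0% (19.8% ± 1.01) and lateral plate mesoderm-like cells 20.3% and 19.0% (19.7% ± 0.921). The order of these last classes differed between the libraries. All 8 classes were lower in replicate 2 than in replicate 1, so the SD between libraries includes a shift that they share. It exceeded the difference between the means of neighbours in the order. No test of the share was made. With 2 libraries against 2, an exact permutation test that counts both directions could not go below p = 0.333. The members were also chosen with earlier results of these data known. Median depth ranged from 13119 to 21618 UMIs over these classes in replicate 1 and from 11998 to 15602.5 in replicate 2. Within a window of 8000 to 30000 UMIs per cell the neural-like share was 22.6% and 20.8%, and that of presomitic mesoderm-like cells 20.9% and 19.8%.

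**Figure D1:**
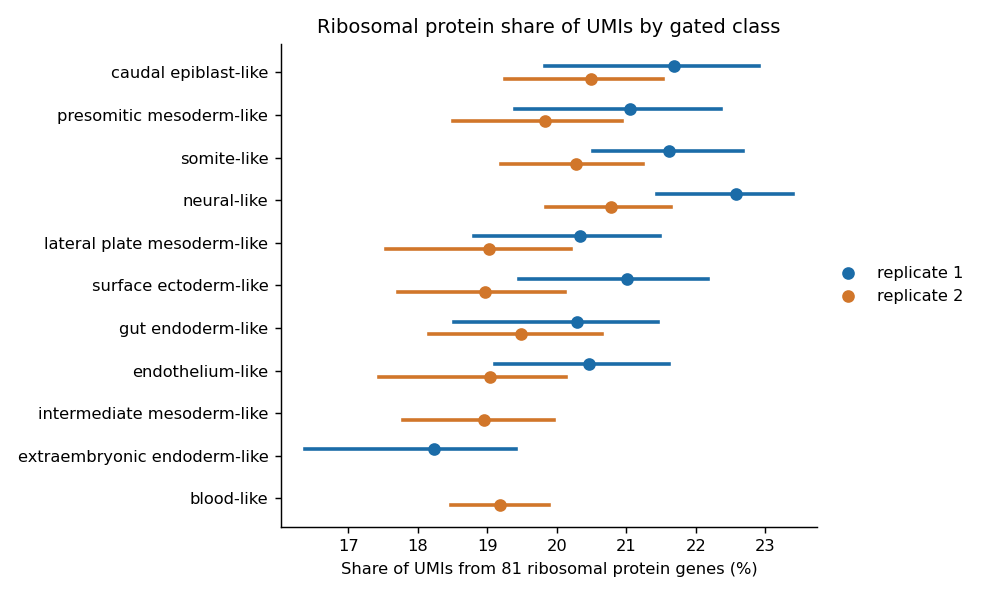
Share of UMIs (%) from the 81 ribosomal protein genes, by cell class and library. Points are the summed share of all cells of a class, lines the 25th to 75th percentile of single cells, and the axis does not start at 0. The neural-like points lie highest in both libraries, at 22.6% and 20.8%, and the extraembryonic endoderm-like point lies lowest, at 18.2%.

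A further 3 classes reached 50 cells in 1 library only and have no replicate check. Extraembryonic endoderm-like cells had a share of 18.2% (155 cells, replicate 1), below all 8 classes of that library. Apoa1 and Ttr were among their leading genes. The 8 such cells of replicate 2 had 20.3%, inside the range of the 8 classes there. Notochord-like cells, under 50 in each library, had 17.4% in replicate 1 (34 cells) and 18.7% in replicate 2 (7 cells). Intermediate mesoderm-like cells with Pax2 and Lhx1 had 19.0% (68 cells, replicate 2). Blood-like cells had 19.2% (138 cells, replicate 2), but globin transcripts made up 27.4% of their UMIs. With globins left out of the total the members' share of the blood-like cells was 26.4%, against a mean of 19.7% over the 8 classes of that library.

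The composition of the ribosomal protein pool moved little. Small-subunit genes gave 43.3% to 44.6% of the members' UMIs in every class and library. The stalk genes Rplp0, Rplp1 and Rplp2 together gave 5.52% and 4.6% in gut endoderm-like cells. In the other classes they gave 6.24% to 6.57% in replicate 1 and 5.12% to 5.88% in replicate 2, so the gut endoderm-like value was the lowest in each library.

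Differences in single members were tested on UMIs summed per class and library, in 1 fit for 8 classes with library as a block (edgeR quasi-likelihood test, Benjamini-Hochberg adjustment over 13970 genes, threshold 0.05). Values after ± are standard errors of a log2 difference. The p values rest on how well a class difference repeats in the second library, not on the spread between embryos. With TMM scaling, 53 of 81 members differed among classes, against a background of 74.0% of all genes tested. Each class was then scaled to the summed UMIs of the members, so that a difference is a departure from their common level. On this scale 41 members differed, against 74.4%. Without the library block these counts fell to 1 and 0. Scaling to the members' sum centres the members in every class (medians of -0.0050 to 0.011) but not all genes (-0.13 to 0.092). A near balance of higher and lower members on that scale is therefore set by the scaling. The shares of all genes beside it are not a like background. The difference between the libraries in a member's share had a median size of 0.11 on the log2 scale. For most members the departures were small: the range from the lowest to the highest class had a median of 0.15 on the log2 scale (0.055 to 0.54), and it was below 0.25 for 71 of 81.

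**Figure D2:**
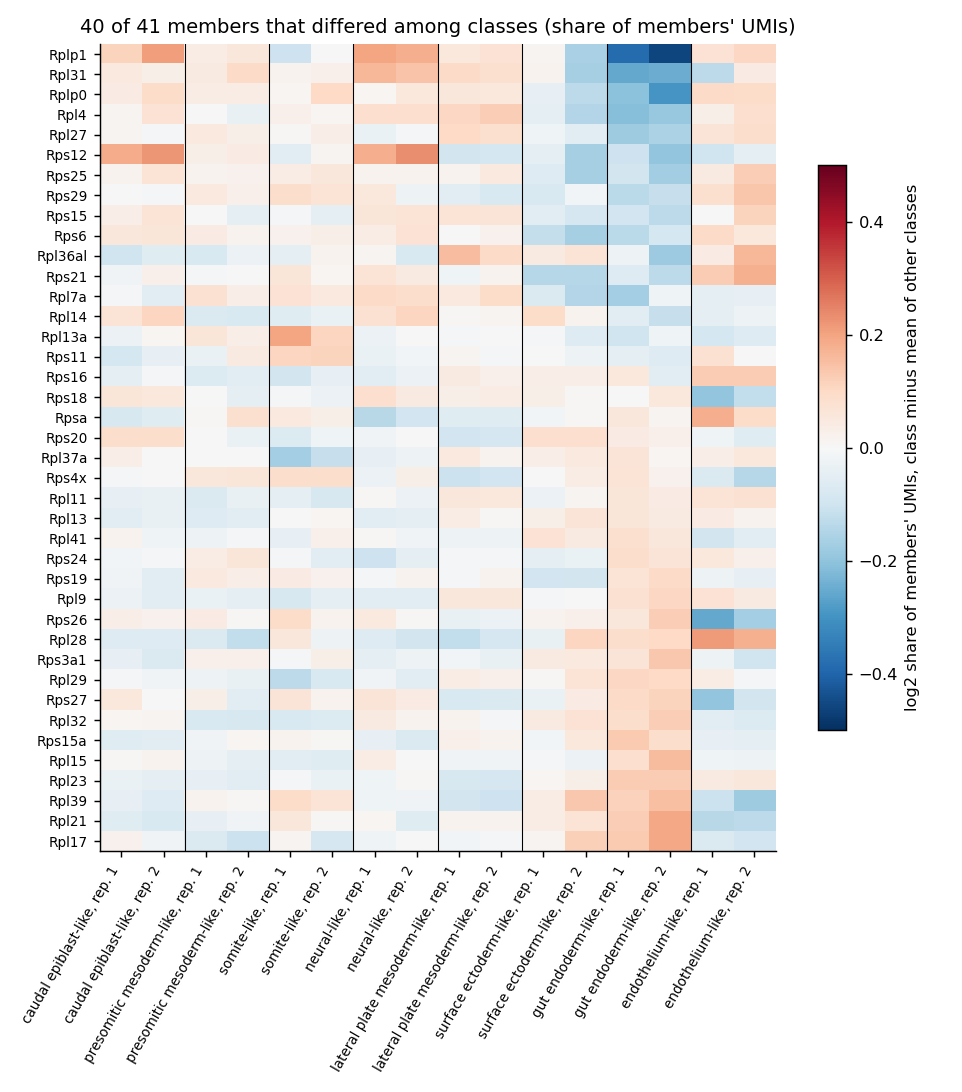
Of the 41 members that differed among classes, 40 are drawn, as log2 share of the members' UMIs in a class minus the mean of the other 7 classes, with a column for each class and library and members ordered by gut endoderm-like cells. The deepest blue cells are Rplp1 in gut endoderm-like cells (-0.38 and -0.46), and Rps12 is red in caudal epiblast-like and neural-like cells of both libraries.

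Almost no member passed the test in the steps of the neuromesodermal lineage, though within each step most members moved slightly in the same direction. From caudal epiblast-like to presomitic mesoderm-like cells only Rpl14, a large-subunit protein, passed the test: 2506 and 2451 CPM became 2233 and 2121 CPM in replicates 1 and 2, a log2 difference of -0.19 ± 0.056 (edgeR, Benjamini-Hochberg adjusted p = 0.0374). Rpl14 was lower in both libraries, and 7.92% of all genes were called lower (14.0% in either direction). Over the 81 members the median log2 difference was -0.046, within a range of -0.20 to 0.082, and 9 had an unadjusted p under 0.05. The 25th and 75th percentiles were -0.075 and -0.015, so most members lay on the lower side. Relative to the members' sum, where 14.1% of all genes were called, Rpl14 and Rps12 were lower, at -0.14 ± 0.036 and -0.15 ± 0.042 (edgeR, Benjamini-Hochberg adjusted p = 0.0200 and 0.0363).

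From caudal epiblast-like to neural-like cells 0 of 81 members passed (edgeR; DESeq2 also called 0), where 9.28% of all genes did, and 1 member had an unadjusted p under 0.05. The members' median log2 difference was 0.045, from -0.044 to 0.16. Their 5th percentile was 0.0029, so nearly all lay on the higher side. From presomitic mesoderm-like to somite-like cells 0 of 81 passed in edgeR and 2 in DESeq2, where edgeR called 8.90% of all genes, and 7 members had an unadjusted p under 0.05. The median log2 difference was 0.063, from -0.070 to 0.16. The median size of a log2 difference over all genes was 0.24, 0.21 and 0.23 in the 3 comparisons, and over members 0.048, 0.045 and 0.063. The members, at medians of 132 to 8562 CPM over the classes, were not matched in level with the genes at large. Whether smaller differences are particular to the members was therefore not tested. Markers of the class of departure were still present in the class of arrival. The caudal epiblast list summed to 355 and 355 CPM in presomitic mesoderm-like cells and to 323 and 290 CPM in neural-like cells, against 1945 and 1749 CPM in caudal epiblast-like cells, with 0 of its 8 markers at 0. Their part in these results was not tested.

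**Figure D3:**
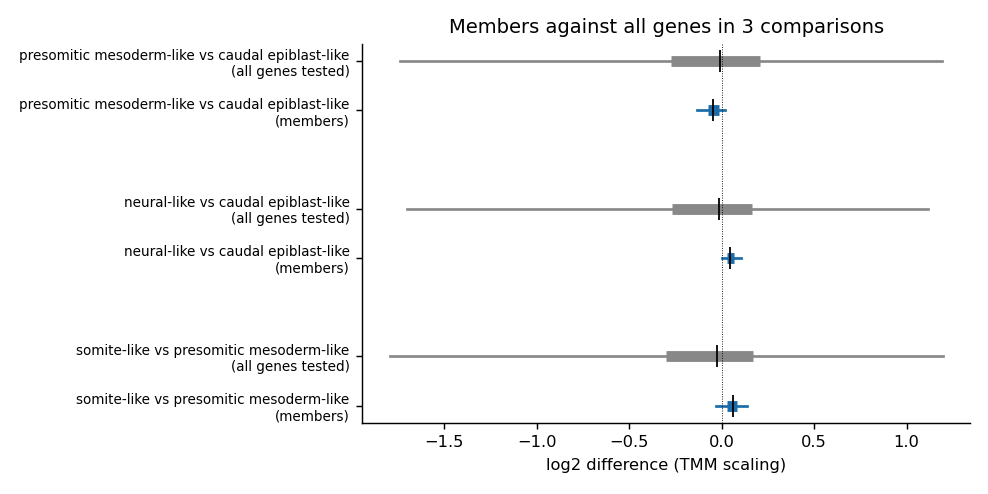
Distribution of log2 differences (TMM scaling) in 3 class comparisons, for all 13970 genes tested (grey) and for the 81 members (blue). Thin lines run from the 5th to the 95th percentile, thick bars from the 25th to the 75th, and ticks mark the median. The members' thin lines span -0.13 to 0.14 at most, while those of all genes reach beyond 1 on either side. The genes at large were not matched to the members in level.

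Against the mean of the other 7 classes with TMM scaling, members lay to 1 side in several classes. In neural-like cells 26 of 81 members were higher and 0 lower, where 14.8% and 12.5% of all genes were. The largest were Rps12 (+0.30), Rplp1 (+0.29) and Rpl31 (+0.25), and the members' median was +0.092. In surface ectoderm-like cells 36 were lower and 0 higher (12.3% and 16.3% of all genes), led by Rps21 and Rps6 (both -0.24), with a median of -0.10. In lateral plate mesoderm-like cells 13 were lower and 0 higher (6.56% and 11%), led by Rpl36a (-0.23).

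In gut endoderm-like cells 22 members were lower and 1, Rpl17 (+0.10), was higher (18.6% and 25% of all genes). In caudal epiblast-like cells 5 were higher and 0 lower (12.3% and 8.90%): Rps12 (+0.25), Rplp1 (+0.21), Rpl14 (+0.14), Rps20 (+0.13) and Rps28 (+0.12). In somite-like cells 6 were higher and 0 lower (10.6% and 10.1%), led by Rpl13a (+0.21). In presomitic mesoderm-like cells 0 passed in either direction (11.8% and 9.83%), with 4 at an unadjusted p under 0.05 by edgeR and 2 called lower by DESeq2. In endothelium-like cells 18 were higher and 3 lower (24.7% and 24.3%). That direction rests on the scaling: scaled to the UMI total alone, 4 were higher and 32 lower, and the members' median moved from 0.043 to -0.057 as that of all genes moved from -0.078 to -0.18. The count in surface ectoderm-like cells fell to 12 lower and 0 higher with that scaling, and in neural-like cells it rose to 47 higher.

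Single members that left the common level were read relative to the members' sum. Gut endoderm-like cells held the largest number, 39 of 100 calls over the 8 classes. These 39 of 81 members (48%) stood close to the background in that class, where 42.0% of all genes were called in either direction. There 19 members were lower and 20 higher (14.4% and 27.6% of all genes), a near balance that the scaling sets. Of the members, 35 of 81 lay outside the range of the other 7 classes in both libraries (42.0% of all genes were called in either direction). The 42.0% counts genes past the test, not genes outside the range. The share of all genes outside the range was not counted, so 35 of 81 has no background beside it. The stalk gene Rplp1 departed most. It stood at 2838 CPM in replicate 1 and 2114 CPM in replicate 2, below the other classes at 3580 to 4494 CPM and 2459 to 3327 CPM. In each library this was the lowest of the 8 classes. As a share of the members' UMIs Rplp1 gave 1.40% and 1.09%, a log2 difference of -0.42 ± 0.040 from the other classes (edgeR, Benjamini-Hochberg adjusted p = 3.56e-06).

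The other stalk genes were lower too, by less. Rplp0, which anchors the stalk to the large subunit, stood at 5655 and 4788 CPM in gut endoderm-like cells, below the 6473 to 7169 and 5142 to 6367 CPM of the other classes. Its log2 difference was -0.25 ± 0.029 (edgeR, Benjamini-Hochberg adjusted p = 2.18e-05). Rplp2, the partner of Rplp1 in the stalk dimer, was lower by a smaller step: 2704 and 2063 CPM, just under the 2761 and 2107 CPM of the next class, with a log2 difference of -0.091 ± 0.026 (edgeR, Benjamini-Hochberg adjusted p = 0.0139). Rplp2 did not pass the test for any difference among classes (edgeR, Benjamini-Hochberg adjusted p = 0.0816). The 3 genes of the stalk therefore moved in the same direction in these cells but by unlike amounts.

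Other large-subunit genes were lower in gut endoderm-like cells. Rpl31, which lies near the exit of the peptide tunnel, had 888 and 746 CPM, under the 966 to 1276 and 763 to 1007 CPM of the other classes (-0.25 ± 0.045, edgeR, Benjamini-Hochberg adjusted p = 0.000660). Rpl4, part of the tunnel wall, had 1439 and 1314 CPM. The other classes had 1650 to 1917 CPM in replicate 1 and 1314 to 1656 CPM in replicate 2, where the surface ectoderm-like value was equal to the last digit given. Rpl4 differed by -0.20 ± 0.032 (edgeR, Benjamini-Hochberg adjusted p = 0.000237). Rpl27 differed by -0.17 ± 0.026 (edgeR, Benjamini-Hochberg adjusted p = 0.000199), from 1991 and 1685 CPM against at least 2265 and 1743 CPM elsewhere. Rpl7l1, a relative of Rpl7 known for a role in making the large subunit, had 94.2 and 124 CPM, below all other classes of its library, and differed by -0.28 ± 0.077 (edgeR, Benjamini-Hochberg adjusted p = 0.00956).

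Members on the higher side in gut endoderm-like cells moved less. Rpl17 (+0.16 ± 0.032) and Rpl21 (+0.16 ± 0.027), both of the large subunit, led them, followed by Rpl39 (+0.13 ± 0.030), a short protein of the tunnel. Rpl21 stood at 2692 and 2805 CPM, inside the other classes' range of 2321 to 2799 CPM in replicate 1 and above their highest value, 2602 CPM, in replicate 2. Scaled by TMM the log2 difference of Rpl21 was +0.099 and that of Rpl39 +0.075 (edgeR, Benjamini-Hochberg adjusted p = 0.0637 and 0.147), so these calls belong to the scale relative to the members' sum. A pyrimidine run near the start was found in 9 of the 15 lower members with an entry, in 9 of 14 higher ones and in 18 of 32 not called.

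Markers of other classes were present in the gut endoderm-like cells. The 8 extraembryonic endoderm markers summed to 317 and 269 CPM there, against at most 33.3 CPM in the other classes, with 0 and 1 of them at 0. The notochord markers summed to 162 and 258 CPM and the presomitic mesoderm markers to 534 and 160 CPM. In the extraembryonic endoderm-like cells of replicate 1 Rplp1 gave 1.85% of the members' UMIs, more than in gut endoderm-like cells, and Rplp0 gave 2.64%, less than the 2.79% there. The median mitochondrial share was 0.957% and 1.48%, and the latter was the highest of the 8 classes in replicate 2. Whether any of these measures takes part in the lower levels was not tested.

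**Figure D4:**
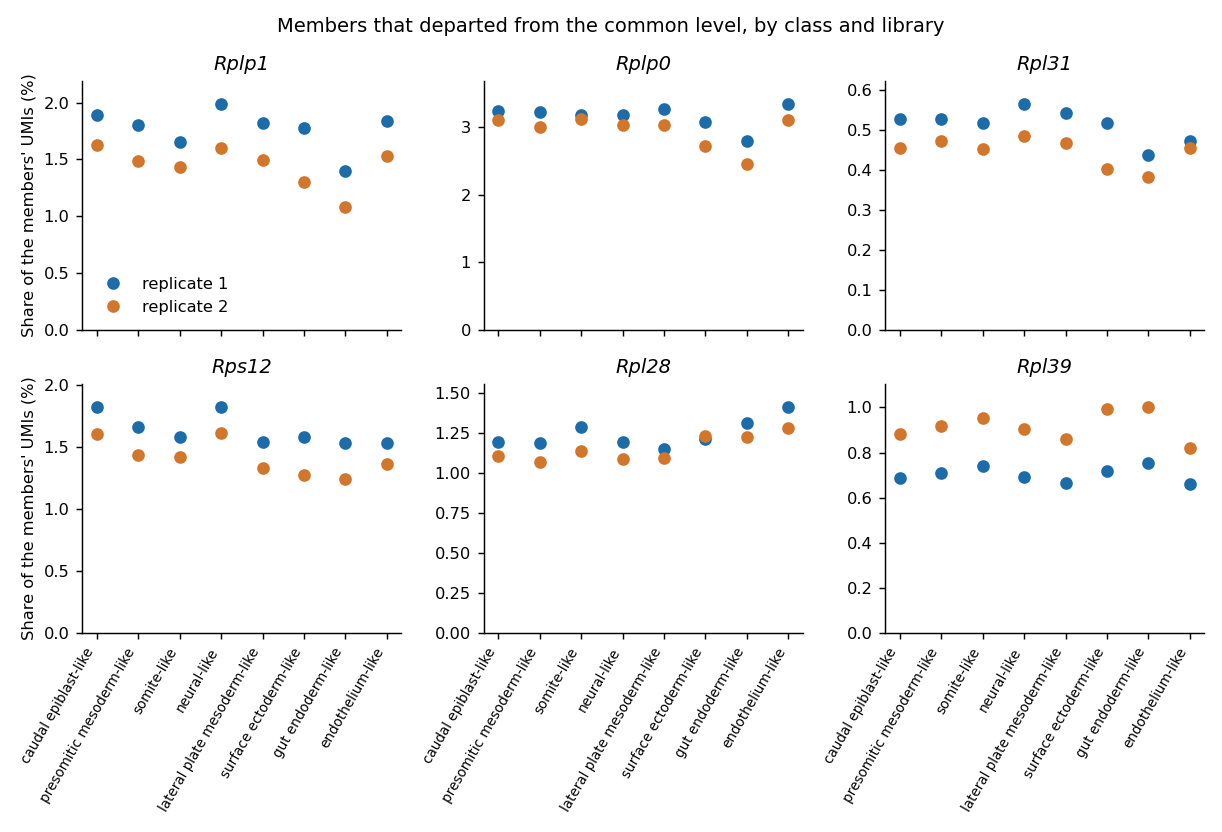
Share of the members' UMIs (%) for 6 members in 8 cell classes, with a point for each library. Rplp1, Rplp0 and Rpl31 have their lowest points in gut endoderm-like cells of both libraries, Rps12 its highest in caudal epiblast-like and neural-like cells, and Rpl28 its highest in endothelium-like cells. Rpl39 shows the difference between libraries, with replicate 2 above replicate 1 in every class.

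Caudal epiblast-like and neural-like cells each had a higher level of Rps12. This small-subunit protein is known from flies for a role in cell competition. It stood at 4115 and 3364 CPM in neural-like cells and at 3965 and 3293 CPM in caudal epiblast-like cells. The other 6 classes had 3111 to 3502 CPM in replicate 1 and 2416 to 2876 CPM in replicate 2, so neither class overlapped with them. The log2 differences of Rps12 from the other 7 classes were +0.21 ± 0.031 in neural-like and +0.20 ± 0.031 in caudal epiblast-like cells (edgeR, Benjamini-Hochberg adjusted p = 0.000423 and 0.000644). Rplp1 was higher in the same classes, by +0.19 ± 0.038 and +0.16 ± 0.038 (edgeR, Benjamini-Hochberg adjusted p = 0.00253 and 0.00964), and Rpl14 by +0.09 in each.

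Relative to the members' sum, 4 members were higher and 2 lower in neural-like cells (9.85% and 17.4% of all genes). The lower ones were Rpsa (-0.12 ± 0.027), a small-subunit protein also known as a laminin receptor, and Rps24 (-0.08). In caudal epiblast-like cells 4 were higher and 0 lower (10.1% and 10.7%). In presomitic mesoderm-like cells 0 were higher and 2 lower (12% and 9.29%), Rpl32 (-0.08) among the lower. In somite-like cells 3 were higher and 3 lower (8.31% and 12.2%): Rpl13a was higher by +0.15 ± 0.031 and Rpl37a lower by -0.14 ± 0.027.

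Endothelium-like cells held 12 higher and 11 lower members (22.7% and 26.8% of all genes). Their leading genes included the gate genes Plvap, Cdh5 and Kdr and, outside the lists, Ramp2 and Egfl7. Rpl28, a large-subunit protein, stood at 2888 and 2439 CPM, above the other classes at 2339 to 2773 and 2082 to 2379 CPM, with a log2 difference of +0.20 ± 0.033 (edgeR, Benjamini-Hochberg adjusted p = 0.000326). Rps26, a small-subunit protein at the messenger exit channel, lay below them: 2700 and 3119 CPM against at least 3061 and 3391 CPM, a difference of -0.21 ± 0.029 (edgeR, Benjamini-Hochberg adjusted p = 6.07e-05). Neither gene overlapped with the other classes of its library.

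Smaller steps in endothelium-like cells were those of Rps21 (+0.15 ± 0.029), Rpsa (+0.14 ± 0.026) and Rpl39 (-0.14 ± 0.031). Rpsa stood at 5422 CPM in replicate 1, above the other classes, and at 5118 CPM in replicate 2, inside their range of 4666 to 5300 CPM. Rpl39 stood at 1348 and 1564 CPM, under the 1352 and 1634 CPM of the next class. With TMM scaling the difference of Rpl39 was -0.096 (edgeR, Benjamini-Hochberg adjusted p = 0.0651). The lateral plate mesoderm markers summed to 250 and 160 CPM in endothelium-like cells, and 4 and 6 of the 8 blood markers were at 0.

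In surface ectoderm-like cells 2 members were higher and 8 lower (21.1% and 8.0% of all genes). Rps6, the substrate of the ribosomal S6 kinases, stood at 1818 and 1513 CPM and differed by -0.14 ± 0.027 (edgeR, Benjamini-Hochberg adjusted p = 0.00175). The value lay below all other classes in replicate 2, whereas gut endoderm-like cells were lower in replicate 1, at 1740 CPM. Gut endoderm markers summed to 479 and 600 CPM in surface ectoderm-like cells, whose part in these values was not tested.

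In lateral plate mesoderm-like cells 4 members were higher and 6 lower (16.4% and 5.05% of all genes). The allantois markers summed to 363 and 396 CPM there, with 0 of 8 at 0, against 13.2 to 86.5 CPM in the other 7 classes. Their part in the values of these cells, those of Rpl36a, Rps27l and Rps20 below among them, was not tested.

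Members with a close relative behaved differently from pair to pair. Rpl36a, on the X chromosome, was lower in lateral plate mesoderm-like cells: 1158 and 1121 CPM lay under the 1251 and 1219 CPM of the next class (-0.15 ± 0.036, edgeR, Benjamini-Hochberg adjusted p = 0.00985). Its autosomal copy Rpl36al stood at 796 and 708 CPM there, a difference of +0.12 ± 0.043 that missed the threshold (edgeR, Benjamini-Hochberg adjusted p = 0.0589). The largest departure of Rpl36al was in extraembryonic endoderm-like cells of replicate 1, at 982 CPM against a mean of 754 CPM in the 8 classes. Relative to the members' sum this was a log2 difference of 0.59 (0.55 to 0.64, an interval for counting error only), the single member past 0.5 in that class. Blood-like cells of replicate 2 had 928 CPM against 693 CPM (log2 0.46, 0.41 to 0.52). Neither has a second library.

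Rpl22l1, a relative of Rpl22, was higher in endothelium-like cells by +0.12 ± 0.044 (edgeR, Benjamini-Hochberg adjusted p = 0.0328), at 931 and 912 CPM, inside the range of the other classes. Rpl22 itself ranged from 1203 to 1335 CPM and passed in no class with either scaling. Rps27l, known as a target of p53, was higher in lateral plate mesoderm-like cells by +0.18 ± 0.059 (edgeR, Benjamini-Hochberg adjusted p = 0.0440). There it stood at 520 and 537 CPM, and in replicate 2 surface ectoderm-like (554 CPM) and presomitic mesoderm-like cells (545 CPM) had more. Rps27 was lower in endothelium-like cells by -0.14 ± 0.036 (edgeR, Benjamini-Hochberg adjusted p = 0.00581). Rpl7 and Rpl10 passed in no class relative to the members' sum.

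The members known from mouse mutants showed small departures or none. Rpl38 and Rpl24, whose mutants have skeletal and tail defects, passed in no class relative to the members' sum, and neither did Rpl27a and Rpl5. With TMM scaling Rpl38 (-0.16), Rpl27a (-0.11) and Rpl5 (-0.20) were among the members lower in surface ectoderm-like cells, and Rpl27a was higher in neural-like cells (+0.12). Rpl38 gave 0.444% to 0.475% of the members' UMIs in replicate 1 and 0.585% to 0.644% in replicate 2. Rps19 and Rps20, both known from mice with dark skin, differed by -0.093 ± 0.024 in surface ectoderm-like and -0.091 ± 0.022 in lateral plate mesoderm-like cells (edgeR, Benjamini-Hochberg adjusted p = 0.0122 and 0.0102). Rpl11, which binds Mdm2, was higher in endothelium-like cells by +0.073 ± 0.023 and Rps7 in gut endoderm-like cells by +0.092 ± 0.028 (edgeR, Benjamini-Hochberg adjusted p = 0.0211 and 0.0185). Rpl10a was lower in endothelium-like cells, by -0.073 ± 0.026 (edgeR, Benjamini-Hochberg adjusted p = 0.0349).

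Genes that build the ribosome moved together in gut endoderm-like cells. Of 20 ribosome biogenesis genes, all 20 were lower in gut endoderm-like cells with TMM scaling, with a median of -0.62 against 0.0069 over all genes, of which 18.6% were lower. All 20 were also lower relative to the members' sum, and 16 of 20 without the library block. Ncl and Npm1, which encode abundant nucleolar proteins, differed by -0.65 ± 0.054 and -0.52 ± 0.048, and Myc, a transcription factor known to drive such genes, by -2.59 ± 0.23 (-2.42 and -2.88 in the libraries). In somite-like cells 13 of the 20 were higher and 0 lower, where 10.6% and 10.1% of all genes were. In neural-like cells the counts were 9 and 0 (14.8% and 12.5%), in presomitic mesoderm-like cells 7 and 1 (11.8% and 9.83%) and in surface ectoderm-like cells 0 and 10 (16.3% and 12.3%). In caudal epiblast-like cells 5 were higher and 0 lower (12.3% and 8.90%), in lateral plate mesoderm-like cells 1 and 0 (11% and 6.56%) and in endothelium-like cells 5 and 4 (24.7% and 24.3%). Scaled to the UMI total alone, the counts were 9 and 0 in somite-like, 6 and 0 in neural-like and 1 and 3 in surface ectoderm-like cells, and again 20 lower in gut endoderm-like cells.

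Among 16 translation factors and ribosomal fusion genes with TOP transcripts, 2 were higher and 4 lower in gut endoderm-like cells, where 25% and 18.6% of all genes were. In surface ectoderm-like cells 0 were higher and 7 lower (16.3% and 12.3%). The list's median there was -0.11, beside -0.10 for the members, and in gut endoderm-like cells -0.024, beside -0.049. Pabpc1, the cytoplasmic poly(A)-binding protein, was higher in caudal epiblast-like cells than in the other classes by 0.81 ± 0.048 (edgeR, Benjamini-Hochberg adjusted p = 2.94e-07). It was lower in presomitic mesoderm-like and in neural-like cells than in caudal epiblast-like cells, by -0.54 ± 0.069 and -0.72 ± 0.069. Of 78 mitochondrial ribosomal protein genes, which serve the separate ribosomes of that organelle, 3 were higher and 22 lower in gut endoderm-like cells (25% and 18.6% of all genes), with a median of -0.057. In either direction 25 of the 78 were called, against 43.7% of all genes.

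The libraries themselves differed in the level of single members. Rps18, of the small subunit, stood at 2410 to 3150 CPM over the 8 classes of replicate 1 and at 1163 to 1407 CPM in replicate 2, a mean log2 difference of -1.01 relative to the members' sum (-1.05 to -0.95 over classes). Rps27 went the other way, from 724 to 937 CPM in replicate 1 to 1100 to 1302 CPM in replicate 2 (+0.61), and Rpl6 from 1738 to 1959 CPM to 2305 to 2664 CPM (+0.56). Neither Rps18 nor these genes overlapped between the libraries in any class. Rplp1 (-0.30), Rplp2 (-0.28), Rpl38 (+0.43) and Rpl7 (+0.40) also kept their direction in all 8 classes, as did 58 of the 81 members. The share of all genes that kept theirs was not counted, so 58 of 81 has no background beside it. Each library is a single sample, so the difference has no test.

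Copies of members found by name, as symbols with -ps and Rps27rt, took few UMIs. Copies under other names were not counted. Rps27rt, a copy of Rps27, stood at 16.1 CPM in replicate 1 and 75.02 CPM in replicate 2 and so moved in the same direction as Rps27. Rpl9-ps6 had 62.5 and 36.3 CPM, and Rpl10-ps3 13.2 and 13.0 CPM. How reads that match several copies were counted is not stated, so values of members with such copies are uncertain to that extent.

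**Figure D5:**
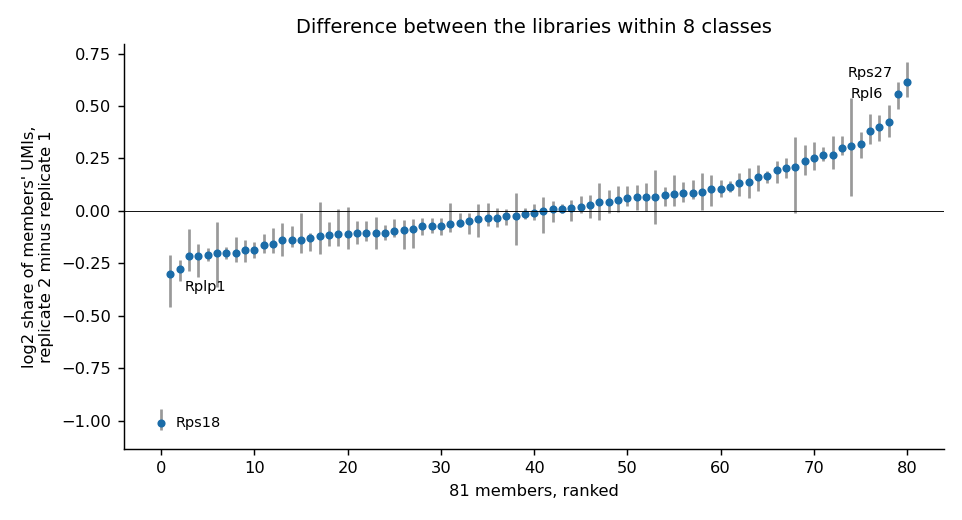
Log2 difference between the libraries (replicate 2 minus replicate 1) in the share of the members' UMIs, for 81 ranked members. Points are the mean over 8 classes and lines run from the lowest to the highest class. Rps18 stands apart at -1.01, and Rps27 and Rpl6 lie at +0.61 and +0.56.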

How the data were processed

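The deposited files hold UMI counts as whole numbers for each barcode. Per the submitters' processing notes, the authors used Cell Ranger 6.1.1 and the mm10 genome, and the annotation is not stated. Barcodes were filtered and Scrublet doublets (Scanpy 1.11.5, seed 0, expected rate 0.8% per 1000 barcodes) were removed per library: 1593 (7.10%) and 367 (2.72%), fewer than the expected 24.4% and 14.6%. Counts were summed per class and library and fitted with edgeR 4.0.16 in R 4.3.3 (filterByExpr, TMM or the members' sum as library size). Library was a block because all classes of a library come from the same suspension. DESeq2 1.42.0, other scalings, gates, filters and single libraries were alternatives. The fit was tested on simulated data. CPM are unscaled. Where values per library are given for a difference, 0.125 UMIs were added before taking log2.

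The members, gene lists and tests were chosen with earlier results of these data known. Members named singly are the 12 with the widest range among those that differed among classes relative to the members' sum, up to 4 per direction in each pairwise comparison, and the stalk genes, paralogue pairs and members known from mutants or p53 regulation. Rpl14, Rpl17, Rpl13a, Rpl37a, Rps28, Rpl32, Rps24, Rps18, Rpl6 and the genes of the other lists were named after their values were seen where they fall outside this rule. 1 member is not reported singly here. Positions are from GENCODE (mm10) and gene starts from RefSeq (GRCm38.p6), with entries for 61 of 81 members.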

Additional observations from a re-analysis of the deposited data

How the results depend on the processing

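The calls rest on the library block and on which barcodes are admitted. Without a replicate block the members that differed among classes fell from 53 to 1, those relative to the members' sum from 41 to 0, and Rpl14 between presomitic mesoderm-like and caudal epiblast-like cells was lost (0). The calls summed over the 8 classes fell from 130 to 2, or from 100 to 5 relative to the members' sum, and 22 of 35 named differences missed the threshold. With barcodes under 0.3% mitochondrial UMIs admitted, the counts rose to 80 members among classes and 255 calls over classes, and somite-like against presomitic mesoderm-like cells gave 1. That setting moved the share in presomitic mesoderm-like cells from 20.4% to 22.1%, above the 22.0% of neural-like cells, and reversed 5 medians. They became 0.069 (presomitic mesoderm-like against caudal epiblast-like), -0.0090 (neural-like against caudal epiblast-like), -0.021 (somite-like against presomitic mesoderm-like), 0.13 (presomitic mesoderm-like against the rest) and -0.0037 (endothelium-like against the rest). Presomitic mesoderm-like against caudal epiblast-like cells gave 3 members with a gate of 4 markers leading by 3, 2 at 8000 to 30000 UMIs per cell, 4 with no scaling beyond the UMI total and 3 with no filter on low counts. DESeq2 gave 2 for somite-like against presomitic mesoderm-like cells. The median in presomitic mesoderm-like cells against the rest turned from -0.0066 to 0.0042 with no scaling, and stood at 0.039 without replicate 1 and -0.048 without replicate 2. That in endothelium-like cells turned to -0.057 with no scaling. With TMM scaling, added after the data were seen, Rpl22 in surface ectoderm-like cells and Rpl27a in lateral plate mesoderm-like cells, neither past the test, turned to -0.041 and -0.039, and Rpl27a to -0.021 with no scaling. The cause of these changes was not tested. With 1 library no residual degrees of freedom remain, so no count could be fitted. The share in single libraries ran from 20.5% to 21.7% in caudal epiblast-like, 19.8% to 21.0% in presomitic mesoderm-like, 20.3% to 21.6% in somite-like, 20.8% to 22.6% in neural-like, 19.0% to 20.3% in lateral plate mesoderm-like, 19.0% to 21.0% in surface ectoderm-like, 19.5% to 20.3% in gut endoderm-like and 19.0% to 20.5% in endothelium-like cells. At this depth 3 classes reached 50 cells in 1 library only, so their values have no replicate check.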
